A study of Arabidopsis thaliana with 24 samples.

Results

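ZAT10 (also called STZ), ZAT12, ZAT6, ZAT11, ZAT7, ZAT5, AZF1, AZF2 and AZF3 are 9 Arabidopsis genes for zinc finger repressors, chosen by gene identifier from the 38088 genes of the deposited expression table. They were chosen with earlier results of these data known, and the counts of members below describe a set picked with that knowledge. All 9 passed the filter on low values, as did 20964 genes in all. The material was whole seedlings, 5 days old, that had rested for 30 min in liquid medium before medium with 150 mM NaCl was given for 15 min (T15) or 0 min (T0). The dcp5-1 mutant carries a lesion in DCP5, a protein of the mRNA decapping machinery and of processing bodies, and Col-0 was its wild type. Polysomal RNA came from the combined polysome fractions of a 10% to 50% sucrose gradient, and total RNA came from the lysate that was loaded. The 8 groups, of 3 libraries each, were dcp5-1 T15 polysomal, dcp5-1 T15 total, dcp5-1 T0 polysomal, dcp5-1 T0 total, Col-0 T15 polysomal, Col-0 T15 total, Col-0 T0 polysomal and Col-0 T0 total RNA. No seedlings were kept for 15 min in medium without NaCl, so NaCl, transfer and elapsed time cannot be told apart in any T15 against T0 comparison.

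These proteins carry a pair of C2H2 zinc fingers that bind DNA, and most members of the group end in an EAR motif, a short leucine-rich stretch that recruits corepressors such as TOPLESS and SAP18 and the histone deacetylases bound to them. Many of the genes are known as rapidly induced stress genes, whose short-lived transcripts rise within minutes of cold, salt, wounding, touch or strong light. ZAT10 and ZAT6 are phosphorylated by stress-activated MAP kinases, ZAT12 is needed for normal expression of the peroxidase gene APX1 under oxidative stress, and ZAT7 has been tied to salt tolerance. AZF1 and AZF2 repress genes that abscisic acid or auxin control, and ZAT11 acts in root growth and nickel tolerance.

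All 9 genes lie on chromosomes 1, 2, 3 and 5 of TAIR10.1, from whose RefSeq record the sequences below were read, and each has its whole coding sequence in 1 exon. Each coding sequence held the plant zinc finger hexapeptide, glutamine-alanine-leucine-glycine-glycine-histidine, at 2 places. The first of these is shown for every gene because it is the feature that places the 9 in 1 family. Each line gives 36 coding bases, 5' to 3' on the coding strand, with the 18 bases of the hexapeptide in capitals.
ZAT10 (AT1G27730, chr1:9648683-9648718, minus strand): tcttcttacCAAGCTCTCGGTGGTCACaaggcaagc
ZAT12 (AT5G59820, chr5:24103217-24103252, plus strand): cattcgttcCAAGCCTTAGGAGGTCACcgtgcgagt
ZAT6 (AT5G04340, chr5:1216708-1216743, minus strand): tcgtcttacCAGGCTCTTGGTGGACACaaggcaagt
ZAT11 (AT2G37430, chr2:15706622-15706657, plus strand): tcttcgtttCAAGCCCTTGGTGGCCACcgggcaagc
ZAT7 (AT3G46090, chr3:16926628-16926663, minus strand): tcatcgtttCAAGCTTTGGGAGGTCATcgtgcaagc
ZAT5 (AT2G28200, chr2:12024693-12024728, plus strand): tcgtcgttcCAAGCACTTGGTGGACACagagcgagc
AZF1 (AT5G67450, chr5:26919526-26919561, minus strand): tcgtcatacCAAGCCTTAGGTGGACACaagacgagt
AZF2 (AT3G19580, chr3:6803734-6803769, minus strand): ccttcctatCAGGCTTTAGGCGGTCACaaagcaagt
AZF3 (AT5G43170, chr5:17331344-17331379, minus strand): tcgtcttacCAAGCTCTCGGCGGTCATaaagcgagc

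The aspartate-leucine-asparagine-leucine core of the EAR motif was found in the proteins of ZAT11, ZAT5, AZF1 and AZF2. These exact residues were not found in the other 5. Another form, leucine at every second residue, was searched near the end of each protein. It was found there in ZAT12, ZAT7, ZAT11 and ZAT5, and not in ZAT10, ZAT6, AZF1, AZF2 and AZF3. No other form was searched, so a protein without these exact forms may still hold an EAR motif. The coding bases of the aspartate-leucine-asparagine-leucine cores are shown because the EAR motif is the repression domain of the family. Capitals mark the 12 bases of the core within 30 coding bases.
ZAT11 (AT2G37430, chr2:15706892-15706921, plus strand): ttgagtttgGATTTGAATCTGactccgtta
ZAT5 (AT2G28200, chr2:12025074-12025103, plus strand): ctaccgttgGATCTTAATCTAccagcacca
AZF1 (AT5G67450, chr5:26919166-26919195, minus strand): cgtggatttGACCTAAACTTAccggctgat
AZF2 (AT3G19580, chr3:6803425-6803454, minus strand): ggattcatcGATCTAAACCTAccggcgtta

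The 250 bases before the annotated start were searched on both strands for motifs of stress-responsive promoters. The W box core TTGAC, bound by WRKY factors, was in 7 of 9 members, all but ZAT6 and AZF3, and in 44.9% of 27443 promoters of the same length. The heat shock element core GAANNTTC was in ZAT12, ZAT6, ZAT11 and ZAT7 (9.55% of promoters), and the drought-responsive core CCGAC in ZAT10, ZAT6 and AZF2 (12.0% of promoters). In AZF2 this core overlaps a W box core by 1 base. The rapid stress response element CGCGTT, the G box CACGTG and the abscisic acid element ACGTGNC were in none of the 9 windows and in 2.59%, 6.49% and 8.57% of promoters. Shown are ZAT10, ZAT11 and AZF1, which fell furthest under NaCl in Col-0 total RNA, and ZAT6, which did not fall. These windows were picked by that outcome. AZF3, which also lacks a W box core, fell there in the deposited values. Whether any motif bears on these changes was not tested, and the other cores are not marked. Capitals mark the W box core on either strand, and the 250 bases run towards the start site.
ZAT10 (chr1:9649324-9649573, minus strand): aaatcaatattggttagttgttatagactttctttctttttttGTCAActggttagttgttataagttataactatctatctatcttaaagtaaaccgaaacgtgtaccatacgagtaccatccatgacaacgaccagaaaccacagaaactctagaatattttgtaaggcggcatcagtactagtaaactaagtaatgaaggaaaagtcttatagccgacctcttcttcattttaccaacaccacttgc
ZAT11 (chr2:15706035-15706284, plus strand): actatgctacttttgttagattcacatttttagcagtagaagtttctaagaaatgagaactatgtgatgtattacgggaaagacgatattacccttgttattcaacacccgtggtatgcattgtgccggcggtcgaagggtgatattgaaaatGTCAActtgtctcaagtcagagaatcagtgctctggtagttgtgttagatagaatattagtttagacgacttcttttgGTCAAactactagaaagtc
AZF1 (chr5:26920180-26920429, minus strand): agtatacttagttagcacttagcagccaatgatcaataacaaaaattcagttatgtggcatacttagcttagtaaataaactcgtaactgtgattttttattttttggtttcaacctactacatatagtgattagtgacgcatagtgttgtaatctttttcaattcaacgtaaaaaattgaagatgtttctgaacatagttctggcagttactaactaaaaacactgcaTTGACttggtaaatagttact
ZAT6 (chr5:1217363-1217612, minus strand): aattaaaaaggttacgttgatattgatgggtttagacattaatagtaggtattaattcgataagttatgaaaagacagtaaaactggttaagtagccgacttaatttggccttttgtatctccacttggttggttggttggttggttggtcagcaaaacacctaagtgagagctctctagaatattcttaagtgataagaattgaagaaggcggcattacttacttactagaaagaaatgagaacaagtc

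Values are FPKM, fragments per unit of transcript length and of a scaling divisor for each library. This is a level per length that can be set side by side between genes. The spacing of low values implied a divisor of 14526000 to 18989000 fragments per library, and 19026 to 19579 genes reached 1 FPKM. Implied fragments in genes with transcripts of at least 400 bases came to 0.954 to 1.23 times the divisor. The divisor is therefore not each library's own fragment total. By the same spacing ZAT10 rested on 657 to 2032 fragments per library, while ZAT11 rested on 1 to 73, so that ZAT11 is the least precise of the 9. DCP5 itself stood at 21.9% to 25.7% of its Col-0 mean in the dcp5-1 groups. The labelled seedlings showed 3 of 4 green shoot markers and 2 of 4 root markers at 1 FPKM or more in every library, and the fourth shoot marker, RBCS1A, was listed at 0 throughout. The summed level of the 4 shoot markers was 19754 to 20261 FPKM in dcp5-1 T15 polysomal, 9102 to 9656 in dcp5-1 T15 total, 13754 to 13901 in dcp5-1 T0 polysomal and 6231 to 6843 in dcp5-1 T0 total RNA. In Col-0 it was 25223 to 28218 FPKM in T15 polysomal, 9695 to 10035 in T15 total, 22855 to 24162 in T0 polysomal and 10613 to 13127 in T0 total RNA. The 4 root markers, nearly all PYK10, summed to 3810 to 3901, 3257 to 3312, 3780 to 3922 and 2139 to 2201 FPKM in dcp5-1 and to 1909 to 2048, 1518 to 1611, 2470 to 2527 and 1632 to 1896 FPKM in Col-0, in the same order. Of 4 seed markers 1 reached 1 FPKM in every library, and their sum was at most 28.2 FPKM. These sums moved with genotype, time and fraction, and their part in the members' differences was not tested. The 3 samples of a group are not stated to be separate cultures, so the p-values measure the spread between these samples only. Library 1 of Col-0 T0 total RNA stood apart from its partners, with a chi-square of counts per degree of freedom of 12.2 against library 0, where the other pairs of replicates had 1.5 to 6.48. Leaving that library out ended none of the members' calls, and let ZAT10 pass for NaCl in dcp5-1 association and AZF3 for the genotypes in T15 total RNA.

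The genes differed widely in level. Over the 8 groups the mean of ZAT10 lay between 42.8 and 122 FPKM, the highest of the 9, and that of ZAT11 between 0.310 and 6.26 FPKM, the lowest. For 8 of the 9 genes a Col-0 total RNA group had the highest mean, and ZAT7 was the exception, with 10.6 ± 0.919 FPKM in dcp5-1 T0 total RNA and 9.86 ± 0.314 FPKM in Col-0 T0 total RNA (SD, n = 3 each), whose ranges overlapped. That group was Col-0 T0 for 7 genes, and for ZAT6 it was Col-0 T15, whose range overlapped that of Col-0 T0. In 4 genes, ZAT10, ZAT12, ZAT11 and AZF3, the 3 libraries of Col-0 T0 total RNA lay above all 21 other libraries. ZAT10 stepped down without overlap through Col-0 T0 total, Col-0 T0 polysomal, dcp5-1 T0 total and dcp5-1 T0 polysomal RNA, and its 4 T15 groups overlapped with their neighbours in the order.

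**Figure D1:**
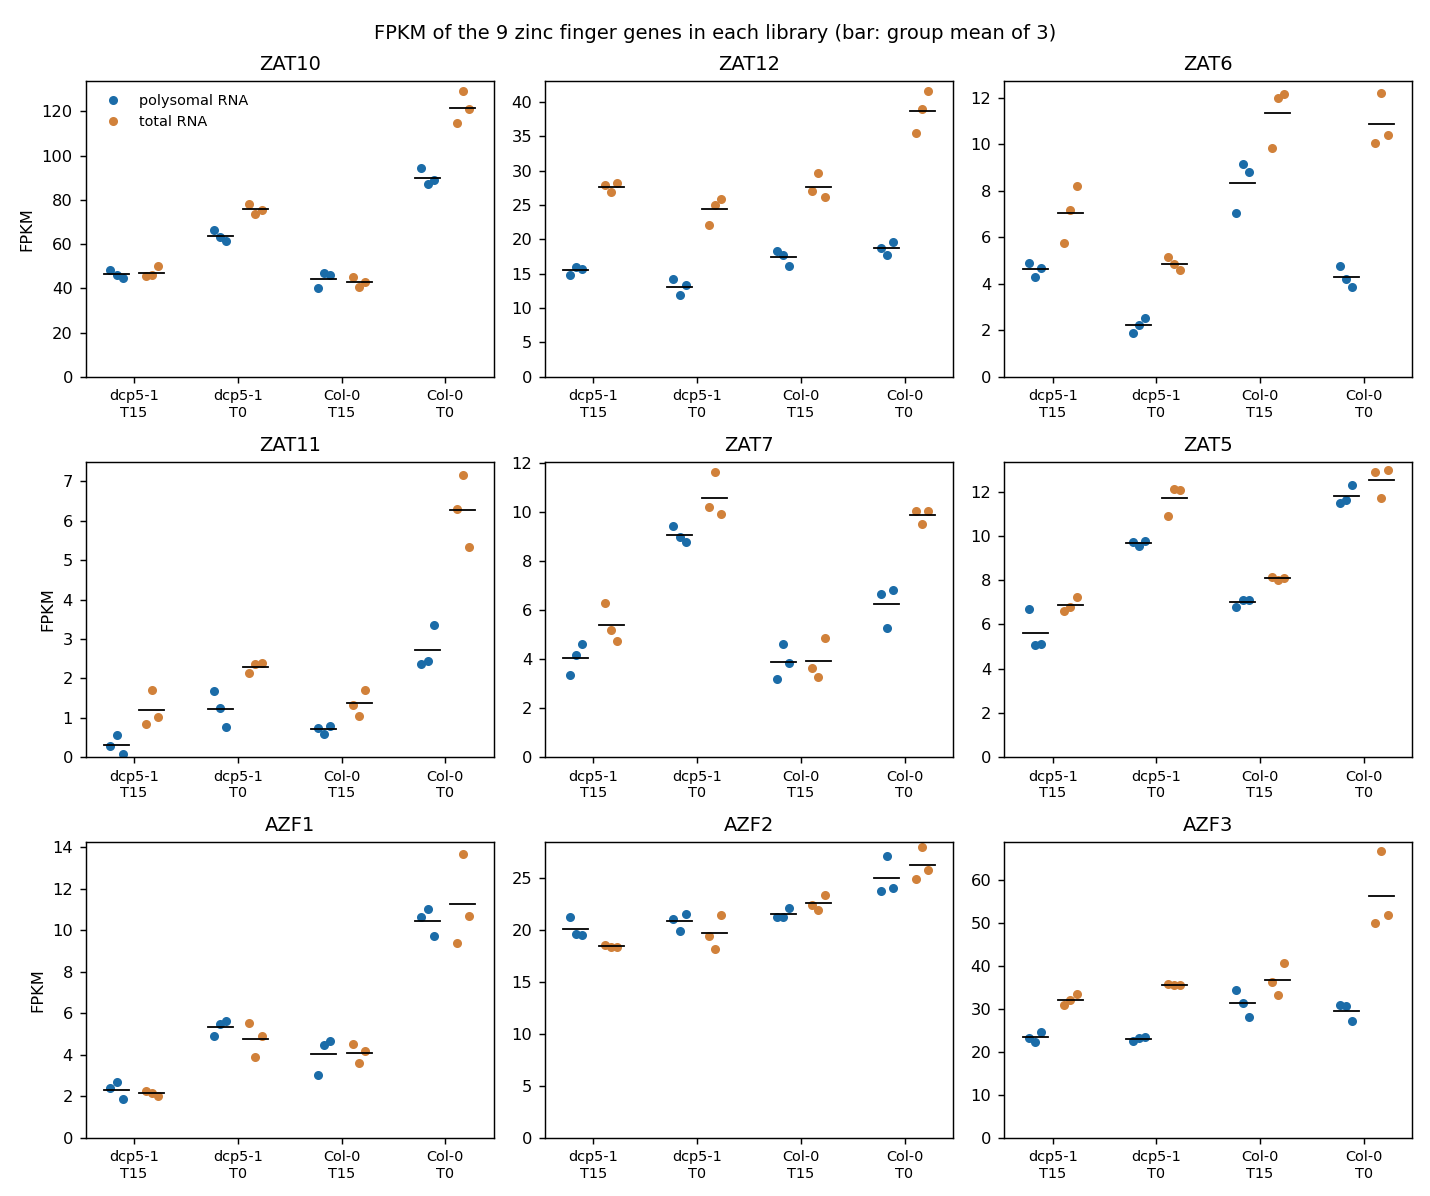
FPKM of each of the 9 genes (vertical axis, starting at 0) in every library, by genotype and time (horizontal axis) and by fraction (blue polysomal RNA, orange total RNA); each point is 1 library and each bar the mean of 3. ZAT10 at T15 lay near 42.8 to 47.1 FPKM in all 4 groups, and all ZAT6 polysomal libraries at T15 lay above those at T0 of the same genotype.

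NaCl for 15 min left most of the family lower, not higher, than at T0. In dcp5-1 polysomal RNA 5 of 9 genes fell and 2 rose, where 15.5% and 17.2% of all genes tested did so. In dcp5-1 total RNA 5 fell and 2 rose, with 26.8% and 29.0% of all genes. In Col-0 polysomal RNA 6 fell and ZAT6 rose, with 17.1% and 15.6% of all genes. In Col-0 total RNA 8 of 9 fell and none rose, where 32.4% of all genes fell and 33.2% rose. With all libraries rescaled to the same total of fragments in nuclear genes (equal nuclear fragment totals below), 23.5% of all genes fell and 10.2% rose in dcp5-1 polysomal RNA, and 22.6% fell and 47.5% rose in Col-0 total RNA. A gene is counted here when its adjusted p was below 0.05 in limma over all genes tested. The member counts above are of deposited values. After each library's trend of level on transcript length and GC content was subtracted, 5 members were called in Col-0 total RNA, against 8. Under equal nuclear fragment totals AZF2 was not called there and ZAT6 rose, as given below. The median log2 change of the 9 was -0.45 in dcp5-1 polysomal, -0.61 in dcp5-1 total, -0.58 in Col-0 polysomal and -0.60 in Col-0 total RNA, and over all genes it was 0.00, 0.01, 0.00 and 0.01 in the same order. These are whole seedlings, and less RNA per cell cannot be told apart from fewer cells that hold it.

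ZAT10, the most abundant member, fell in all 4 comparisons. In total RNA it had 45.5, 45.8 and 49.9 FPKM in dcp5-1 T15, against 78.2, 73.6 and 75.2 FPKM in dcp5-1 T0. The Col-0 T15 libraries had 45.1, 40.4 and 42.9 FPKM, against 115, 129 and 121 FPKM in Col-0 T0. The T15 libraries of each genotype lay below all of its T0 libraries. The transcript fell by 0.67 ± 0.06 on the log2(FPKM + 1) scale in dcp5-1 (adjusted p = 3.53e-09) and by 1.48 ± 0.06 in Col-0 (adjusted p = 6.56e-15); errors here and below are SE. Polysomal RNA held 48.2, 45.9 and 44.7 FPKM in dcp5-1 T15, against 66.4, 63.4 and 61.2 FPKM in dcp5-1 T0. For Col-0 the polysomal values were 40.1, 46.9 and 46.2 FPKM at T15, against 94.3, 87.1 and 88.7 FPKM at T0. Neither pair of groups overlapped, and the polysomal level fell by 0.45 ± 0.06 in dcp5-1 (adjusted p = 5.43e-06) and by 1.01 ± 0.06 in Col-0 (adjusted p = 2.42e-11).

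ZAT11 and AZF1, a regulator of root growth and a repressor of hormone-controlled genes, fell alongside. ZAT11 in total RNA had 0.847, 1.71 and 1.02 FPKM in dcp5-1 T15, against 2.13, 2.37 and 2.39 FPKM in dcp5-1 T0. It had 1.33, 1.05 and 1.71 FPKM in Col-0 T15, against 6.31, 7.15 and 5.34 FPKM in Col-0 T0. No T15 library reached a T0 library of its genotype, and the Col-0 T0 libraries were the highest. ZAT11 fell by 0.61 ± 0.17 in dcp5-1 (adjusted p = 0.00354) and by 1.62 ± 0.17 in Col-0 (adjusted p = 1.66e-08). Each library's trend of level on transcript length and GC content was also subtracted (called length and GC correction below), and the values were then -0.19 (adjusted p = 0.340) and -0.89 (adjusted p = 5.31e-05), so the dcp5-1 call was lost. In polysomal RNA it fell by 0.76 ± 0.17 and 1.11 ± 0.17 in dcp5-1 and Col-0, and the dcp5-1 T15 value rested on 1 to 6 fragments. AZF1 in total RNA had 2.27, 2.15 and 2.0 FPKM in dcp5-1 T15, against 5.54, 3.87 and 4.90 FPKM in dcp5-1 T0. Its Col-0 libraries had 4.52, 3.61 and 4.17 FPKM at T15, against 9.39, 13.7 and 10.7 FPKM at T0. The groups did not overlap in either genotype, and AZF1 fell by 0.87 ± 0.13 in dcp5-1 (adjusted p = 1.06e-05) and by 1.25 ± 0.13 in Col-0 (adjusted p = 3.84e-08). Library 1 of Col-0 T0 was the highest, and without it the Col-0 value was -1.12 ± 0.14. In polysomal RNA AZF1 changed by -0.95 in dcp5-1 and -1.20 in Col-0.

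ZAT7, linked to salt tolerance, and ZAT5, a less studied member, also fell in both genotypes and both fractions. ZAT7 in total RNA had 6.28, 5.18 and 4.75 FPKM in dcp5-1 T15, against 10.2, 11.6 and 9.93 FPKM in dcp5-1 T0. For Col-0 it was 3.65, 3.25 and 4.84 FPKM at T15, against 10.0, 9.49 and 10.0 FPKM at T0. The times did not overlap, and the change was -0.86 in dcp5-1 and -1.16 in Col-0 total RNA (adjusted p = 3.97e-06 and 3.55e-08); after length and GC correction the values were -0.51 and -0.56, both still called. ZAT7 shares 83.3% of 809 aligned bases with its tandem neighbour ZAT8, and reads may have been split between them. ZAT8 had 1.90 ± 0.515 FPKM in dcp5-1 T15, against 4.81 ± 1.08 FPKM in dcp5-1 T0 total RNA (SD, n = 3 each). ZAT5 averaged 6.87 ± 0.335 FPKM in dcp5-1 T15 and 11.7 ± 0.699 FPKM in dcp5-1 T0 total RNA, and 8.08 ± 0.0636 FPKM in Col-0 T15 and 12.5 ± 0.700 FPKM in Col-0 T0 total RNA (SD, n = 3 each). Its 4 log2 changes were close to each other, at -0.70 and -0.69 in dcp5-1 polysomal and total RNA and -0.68 and -0.57 in Col-0 polysomal and total RNA.

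ZAT6, a MAP kinase target that regulates phosphate and cold responses, went the other way. In polysomal RNA it had 4.91, 4.28 and 4.66 FPKM in dcp5-1 T15, against 1.90, 2.23 and 2.51 FPKM in dcp5-1 T0. The Col-0 polysomal values of ZAT6 were 7.06, 9.16 and 8.82 FPKM at T15, against 4.77, 4.19 and 3.88 FPKM at T0. Every T15 library lay above every T0 library of its genotype, and ZAT6 rose by 0.81 ± 0.11 in dcp5-1 (adjusted p = 1.01e-05) and by 0.82 ± 0.11 in Col-0 (adjusted p = 7.45e-06). Total RNA had 5.77, 7.19 and 8.21 FPKM in dcp5-1 T15, against 5.16, 4.84 and 4.58 FPKM in dcp5-1 T0, and ZAT6 rose there by 0.45 ± 0.11 (adjusted p = 0.00188). Col-0 total RNA had 9.84, 12.0 and 12.2 FPKM at T15, against 10.0, 12.2 and 10.4 FPKM at T0. These last groups overlapped, and the change of 0.05 ± 0.11 did not pass the test (adjusted p = 0.701); under equal nuclear fragment totals it was 0.27 (adjusted p = 0.0240).

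ZAT12, the member tied to oxidative stress, moved less. ZAT12 in total RNA had 28.0, 26.8 and 28.2 FPKM in dcp5-1 T15, against 22.1, 25.0 and 25.9 FPKM in dcp5-1 T0. It had 27.1, 29.7 and 26.1 FPKM in Col-0 T15, against 35.5, 38.9 and 41.6 FPKM in Col-0 T0. The T15 libraries were the higher ones in dcp5-1 and the lower ones in Col-0, without overlap. ZAT12 rose by 0.18 ± 0.07 in dcp5-1 (adjusted p = 0.0411) and fell by 0.47 ± 0.07 in Col-0 (adjusted p = 7.17e-06). After length and GC correction the dcp5-1 value was 0.49 (adjusted p = 3.61e-06) and the Col-0 value 0.04 (adjusted p = 0.636); the dcp5-1 call was lost without the filter and when any 1 of 4 libraries was left out, with 0.12 (adjusted p = 0.225) without library 0 of dcp5-1 T0. In polysomal RNA ZAT12 rose by 0.22 ± 0.07 in dcp5-1 (adjusted p = 0.0213), a call lost when any 1 of 3 libraries was left out and under equal nuclear fragment totals, where it was 0.14. The Col-0 polysomal change of -0.10 did not pass.

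AZF3 and AZF2, repressors grouped with ZAT10 in earlier work, did not pass the test in dcp5-1. In Col-0 AZF2 fell in both fractions and AZF3 in total RNA only, and the difference between the genotypes passed for AZF3 in total RNA, as given below, and not for AZF2. The polysomal changes of AZF3, 0.02 in dcp5-1 and 0.08 in Col-0, did not pass. AZF3 in total RNA had 30.8, 32.0 and 33.5 FPKM in dcp5-1 T15, against 35.8, 35.5 and 35.6 FPKM in dcp5-1 T0. It had 36.2, 33.1 and 40.6 FPKM in Col-0 T15, against 49.9, 66.6 and 51.9 FPKM in Col-0 T0. Library 1 of Col-0 T0 was the highest of the 24, and neither genotype's times overlapped. The AZF3 change in Col-0 was -0.60 ± 0.09 (adjusted p = 3.90e-06), and -0.47 ± 0.08 without library 1. After length and GC correction its direction turned and it did not pass, at 0.10 (adjusted p = 0.314); the dcp5-1 change of -0.15 did not pass. AZF3 overlaps QWRF9 on the other strand by 408 of its 702 bases, and no source states whether strand was used in counting; QWRF9 averaged at most 1.87 FPKM in any group. AZF2 averaged 18.4 ± 0.133 FPKM in dcp5-1 T15 and 19.7 ± 1.66 FPKM in dcp5-1 T0 total RNA, and 22.5 ± 0.743 FPKM in Col-0 T15 and 26.2 ± 1.57 FPKM in Col-0 T0 total RNA (SD, n = 3 each). It fell by 0.21 ± 0.06 in Col-0 total RNA (adjusted p = 0.00478), a value of 0.03 (adjusted p = 0.728) under equal nuclear fragment totals and of -0.14 (adjusted p = 0.0537) after length and GC correction. In Col-0 polysomal RNA AZF2 fell by 0.20 ± 0.06 (adjusted p = 0.0118), and without library 1 of Col-0 T0 polysomal RNA this was -0.15 (adjusted p = 0.0910).

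**Figure D2:**
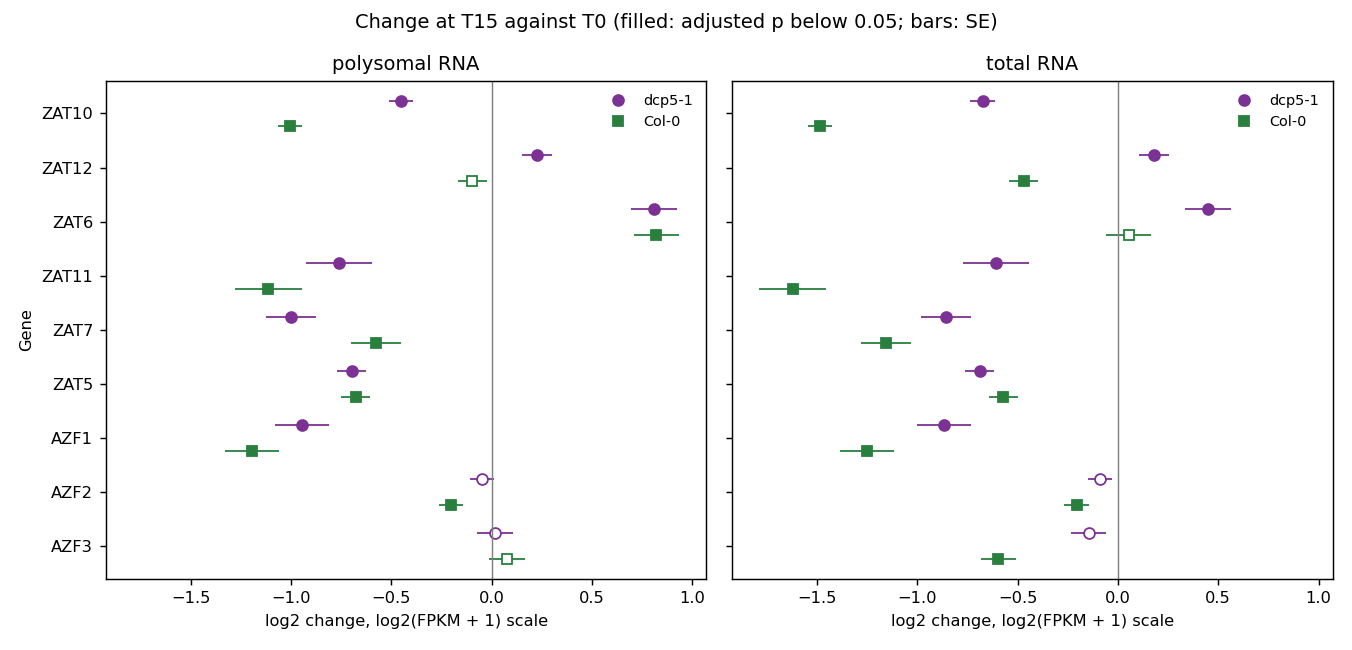
Log2 change at T15 against T0 (horizontal axis, log2(FPKM + 1) scale, bars SE) of the 9 genes in polysomal RNA (left) and total RNA (right), for dcp5-1 (circles) and Col-0 (squares); filled symbols have an adjusted p below 0.05. Most symbols lie left of 0, ZAT6 lies right of it in polysomal RNA in both genotypes, and in total RNA ZAT10 reached -0.67 in dcp5-1 and -1.48 in Col-0.

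The NaCl response was then compared between the genotypes, as the dcp5-1 change minus the Col-0 change. In total RNA ZAT10, ZAT12, ZAT11 and AZF3 differed, all towards a smaller fall or a rise in dcp5-1, 4 of 9 where 16.9% of all genes differed in that direction and 8.34% in the other. Under equal nuclear fragment totals these shares were 8.77% and 26.2%, and the median of all genes was -0.16. The difference was 0.81 ± 0.09 for ZAT10 (adjusted p = 9.32e-07), 0.65 ± 0.10 for ZAT12 (adjusted p = 9.56e-05) and 1.01 ± 0.23 for ZAT11 (adjusted p = 0.00295). For AZF3 it was 0.45 ± 0.12 (adjusted p = 0.0112), but 0.04 after length and GC correction and 0.23 under equal nuclear fragment totals, neither of which passed. ZAT11 gave 1.19 with a pseudocount of 0.1 (adjusted p = 0.0695). The members' median difference was 0.40, and that of all genes 0.02. In polysomal RNA ZAT10 differed by 0.55 ± 0.09 (adjusted p = 1.89e-04) and ZAT12 by 0.32 ± 0.10 (adjusted p = 0.0476), 2 of 9 with a background of 6.49%, and 4.45% of all genes in the other direction; under equal nuclear fragment totals the shares were 3.58% and 8.00%. The ZAT12 call was lost without the filter, under equal nuclear fragment totals, in a fit of only the groups compared and when any 1 of 13 libraries was left out, with adjusted p of 0.0503 to 0.201. In polysomal RNA ZAT6 had a difference of -0.01 ± 0.16 and ZAT5 of -0.02 ± 0.10, neither of which passed. ZAT5 in total RNA, at -0.12 as deposited, passed under equal nuclear fragment totals, at -0.32 (adjusted p = 0.0357). These values share their libraries with the genotype comparisons that follow.

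At T0, before any NaCl, most of the family was lower in dcp5-1. In polysomal RNA 8 of 9 genes were lower and ZAT7 was higher, where 24% of all genes were lower and 21.9% higher. In total RNA 7 were lower and none higher, with 28.6% and 19.5% of all genes. The members' median was -0.48 in polysomal and -0.65 in total RNA, against -0.01 and -0.05 over all genes. Under equal nuclear fragment totals 13.0% of all genes were lower and 34.6% higher in polysomal RNA, and 14.4% lower and 37.4% higher in total RNA, with medians of 0.11 and 0.13. The largest differences in total RNA were those of ZAT11 (-1.13 ± 0.17), AZF1 (-1.08 ± 0.13) and ZAT6 (-1.02 ± 0.11), with adjusted p of 7.23e-06, 8.79e-07 and 1.81e-07. ZAT10 (-0.68 ± 0.06), ZAT12 (-0.65 ± 0.07), AZF3 (-0.63 ± 0.09) and AZF2 (-0.40 ± 0.06) were also lower, and for these 7 genes no dcp5-1 library reached a Col-0 library. As a share of the Col-0 mean, dcp5-1 stood between 36.6% for ZAT11 and 75.1% for AZF2. AZF2 was -0.19 (adjusted p = 0.0112) under equal nuclear fragment totals. ZAT7 was the exception in polysomal RNA, with 9.44, 8.98 and 8.76 FPKM in dcp5-1 T0 and 6.67, 5.29 and 6.84 FPKM in Col-0 T0. The dcp5-1 libraries were all higher, by 0.48 ± 0.12 (adjusted p = 0.00329), and the total RNA difference of 0.09 did not pass; the difference between the fractions, 0.39 ± 0.18, did not pass either (adjusted p = 0.171). ZAT5 stood at -0.26 and AZF2 at -0.25 in polysomal RNA, values that under equal nuclear fragment totals were -0.12 and -0.10 and did not pass.

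At T15 the genotypes differed in fewer members. In polysomal RNA 4 of 9 were lower in dcp5-1, ZAT6, AZF1, AZF3 and ZAT5, where 22.4% of all genes were lower and 22.3% higher. In total RNA 4 were lower, ZAT6, AZF1, AZF2 and ZAT5, and ZAT7 was higher, with 26.1% and 24% of all genes. ZAT6 and AZF1 were thus lower in dcp5-1 at both times and in both fractions. At T15 the ZAT6 difference was -0.73 ± 0.11 in polysomal RNA (adjusted p = 1.88e-05) and -0.62 ± 0.11 in total RNA (adjusted p = 1.06e-04). That of AZF1 was -0.60 ± 0.13 in polysomal RNA (adjusted p = 9.63e-04) and -0.70 ± 0.13 in total RNA (adjusted p = 1.94e-04). ZAT10 and ZAT12 had differences of 0.13 ± 0.06 and 0.00 ± 0.07 in total RNA at T15, which did not pass in the fit of deposited values (adjusted p = 0.0736 and 0.977). ZAT10 passed under equal nuclear fragment totals, at 0.13 (adjusted p = 0.0364), and after length and GC correction the ZAT12 value was -0.19 (adjusted p = 0.0304). The ZAT7 groups overlapped in total RNA at T15, and their difference, 0.39 ± 0.12 (adjusted p = 0.0126), was 0.18 (adjusted p = 0.238) after that correction and 0.29 (adjusted p = 0.0834) without library 1 of Col-0 T15. Without library 0 of dcp5-1 T15 total RNA 3 of 9 genes passed, with ZAT7 at 0.29 (adjusted p = 0.0810) and ZAT5 at -0.18 (adjusted p = 0.0761).

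**Figure D3:**
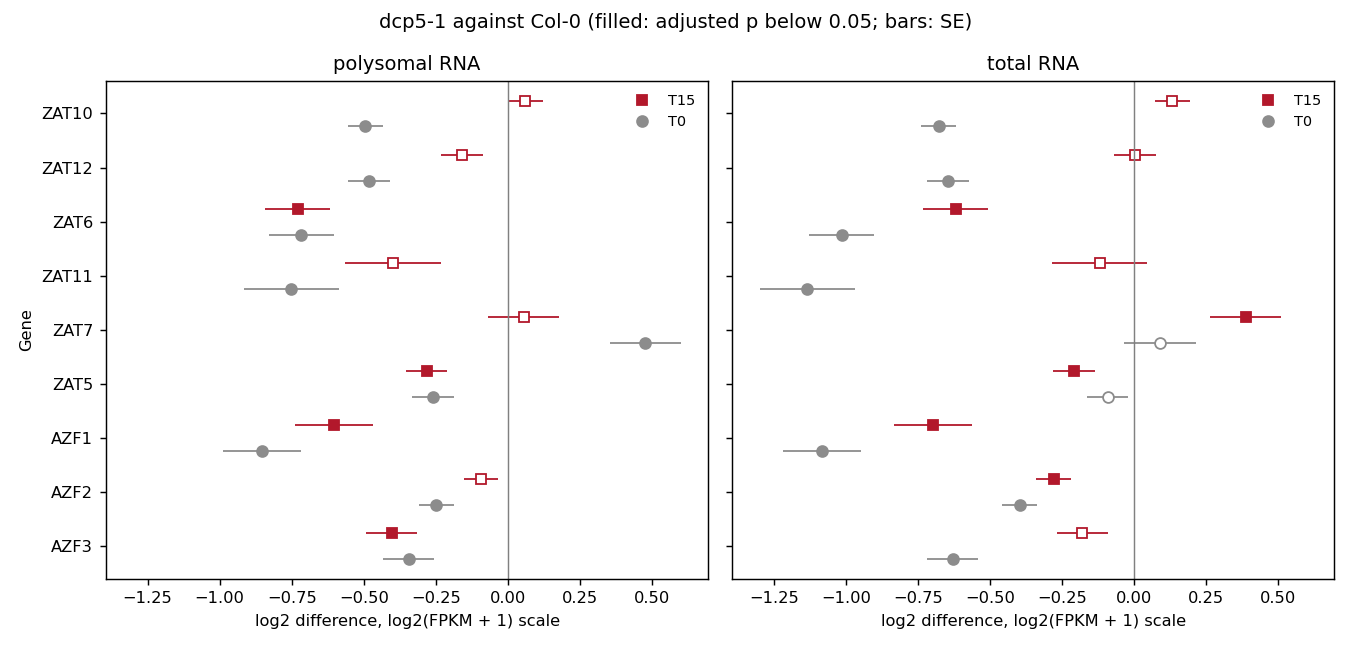
Log2 difference of dcp5-1 against Col-0 (horizontal axis, log2(FPKM + 1) scale, bars SE) of the 9 genes in polysomal RNA (left) and total RNA (right), at T15 (squares) and T0 (circles); filled symbols have an adjusted p below 0.05. In total RNA the T0 symbols lie left of 0 for 7 called genes, and ZAT10 lies at 0.13 at T15 and -0.68 at T0.

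Polysomal RNA held less of most of these transcripts than total RNA, in the deposited values, which are relative levels and not amounts of RNA. In dcp5-1 6 of 9 genes were lower in polysomal RNA at T15 and 6 at T0, where 32.8% and 36.3% of all genes were lower. In Col-0 5 were lower at T15 and 6 at T0, with 29.8% and 36.0% of all genes, and no member was higher in polysomal RNA in any of the 4 conditions. The members' medians were -0.34 and -0.25 in dcp5-1 and -0.18 and -0.59 in Col-0, against -0.01, -0.04, 0.00 and -0.02 over all genes. Under equal nuclear fragment totals 45.3% of all genes were lower and 23.8% higher in polysomal RNA in dcp5-1 T15, against 32.8% and 33.6% as deposited. In Col-0 T15 the shares were 47.1% and 18.8%, against 29.8% and 31.6%. ZAT12, ZAT6, ZAT11 and AZF3 were the members lower in all 4. ZAT12 had 18.8, 17.7 and 19.7 FPKM in Col-0 T0 polysomal RNA, against 35.5, 38.9 and 41.6 FPKM in Col-0 T0 total RNA. Its polysomal libraries were all below, with a difference of -1.01 ± 0.07 (adjusted p = 4.06e-11) there and -0.80 ± 0.07 in dcp5-1 T15 (adjusted p = 2.78e-09). ZAT6 differed by -1.17 ± 0.11 in Col-0 T0 (adjusted p = 5.08e-09) and by -0.87 ± 0.11 in dcp5-1 T0 (adjusted p = 5.04e-07). As deposited, AZF1 and AZF2 passed in none of the 4, with differences between -0.08 and 0.14 for AZF1 and between -0.07 and 0.12 for AZF2. Under equal nuclear fragment totals AZF2 was lower in Col-0 T15 polysomal RNA, at -0.31 (adjusted p = 1.02e-04). In Col-0 T15 the calls of ZAT11, ZAT5 and AZF3 each rested on single libraries: 2 members passed without library 2 of total RNA or library 1 of polysomal RNA, and 3 without library 0 of total RNA. The ZAT7 call in dcp5-1 T15 was likewise lost without library 0 of either fraction.

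The fraction differences were also taken after length and GC correction. The transcripts of the 9 are 702 to 1431 bases long, against a median of 1648 over the genes tested. With it, ZAT12, ZAT6 and AZF3 were still lower in polysomal RNA in every condition, at -0.51, -1.20 and -0.51 in Col-0 T0, while ZAT11 passed in none, at -0.01 in Col-0 T0 and 0.21 in dcp5-1 T0. Under the same treatment ZAT7 was 0.42 in dcp5-1 T0 (adjusted p = 0.00539), 0.06 in dcp5-1 T15 and 0.13 in Col-0 T0, against -0.20, -0.34 and -0.59 as deposited. AZF2 passed in Col-0 after it, at -0.18 at T15 and -0.14 at T0.

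**Figure D4:**
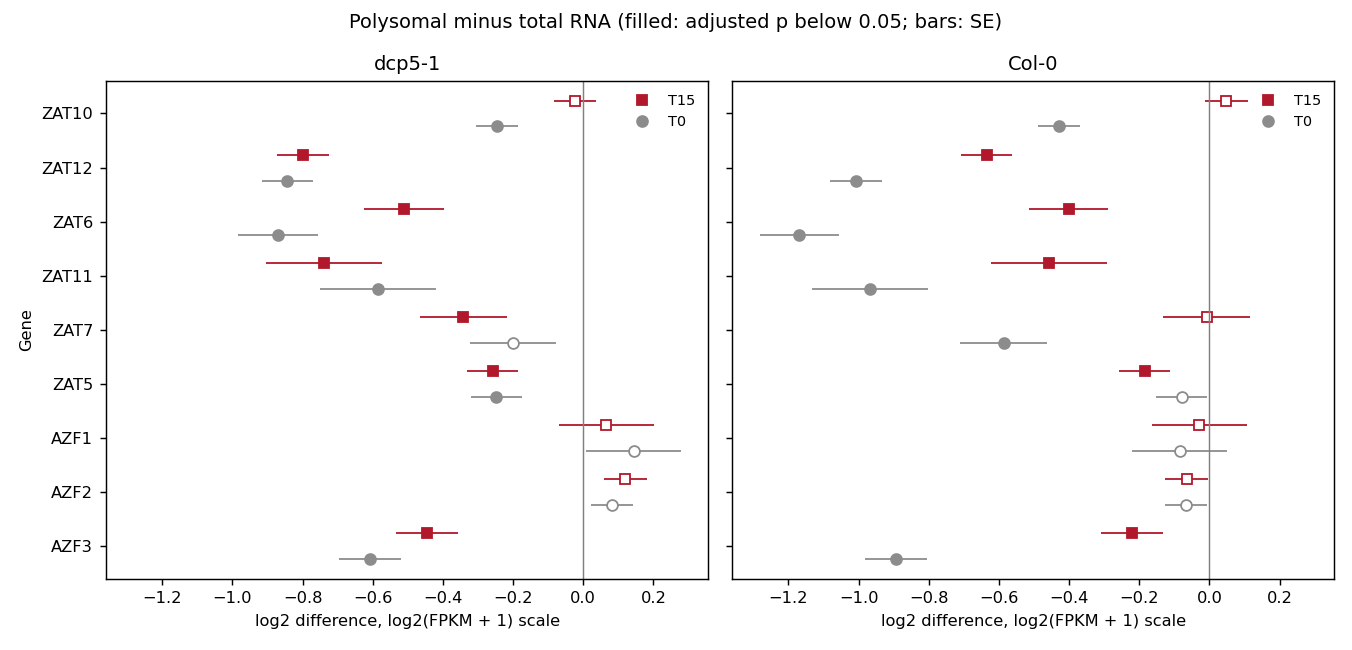
Log2 polysomal level minus log2 total level (horizontal axis, log2(FPKM + 1) scale, bars SE) of the 9 genes in dcp5-1 (left) and Col-0 (right), at T15 (squares) and T0 (circles); filled symbols have an adjusted p below 0.05. In Col-0 the T15 symbols of ZAT10, ZAT12, ZAT6, ZAT7 and AZF3 lie to the right of their T0 symbols, ZAT6 at -0.40 and -1.17. ZAT11 also lies further right at T15, in a change that did not pass.

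Polysome association, the log2 polysomal level minus the log2 total level, changed with NaCl in Col-0 for 5 of the 9 genes. ZAT6, AZF3, ZAT7, ZAT10 and ZAT12 were all more associated at T15, where 22.8% of all genes rose and 21.5% fell in this measure. Under equal nuclear fragment totals 14.7% of all genes rose and 35.7% fell, with a median of -0.18. The rise was 0.77 ± 0.16 for ZAT6 (adjusted p = 5.00e-04), 0.67 ± 0.12 for AZF3 (adjusted p = 1.53e-04) and 0.48 ± 0.09 for ZAT10 (adjusted p = 1.01e-04). ZAT10 thereby lay at a polysomal to total difference of 0.05 at T15, against -0.43 at T0. For ZAT7 it was 0.58 ± 0.18 (adjusted p = 0.0102) and for ZAT12 0.37 ± 0.10 (adjusted p = 0.00556). ZAT11 also moved upwards without passing, and 6 of the 9 had an unadjusted p under 0.05 in limma. Length and GC correction left 2 of the 5 past the test, ZAT6 at 0.69 and ZAT10 at 0.39, and gave 0.14 for AZF3, 0.06 for ZAT7 and -0.04 for ZAT12. With equal nuclear fragment totals the values were 0.26 for ZAT10, still past the test, and 0.16 for ZAT12 and 0.40 for ZAT7, which were not, -0.30 for ZAT5 (adjusted p = 0.0376) and -0.21 for AZF2 (adjusted p = 0.0494). The T15 difference of ZAT10 in Col-0 was then -0.20 (adjusted p = 8.73e-04).

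In dcp5-1 none of the 9 passed limma's test for a change in association, where 26.3% of all genes did, 12.3% upwards and 14.0% downwards, or 8.92% and 19.8% under equal nuclear fragment totals. At an unadjusted p under 0.05 there were 2, and the median of the 9 was 0.04 in dcp5-1 and 0.48 in Col-0. ZAT6 had a change of 0.36 ± 0.16 and ZAT10 one of 0.22 ± 0.09 in dcp5-1, values that did not pass (adjusted p = 0.107 and 0.0595). ZAT10 passed in a fit of only the groups compared and when any 1 of 5 libraries was left out, with 0.26 (adjusted p = 0.0335) without library 2 of dcp5-1 T15 total RNA. ZAT6 passed without that library, at 0.46 (adjusted p = 0.0401), and with a pseudocount of 0.1. The difference between the genotypes in this change passed for none of the 9 in limma, with a background of 6.25%, and 4 of 9 had an unadjusted p under 0.05. It was -0.72 ± 0.25 for ZAT7 and -0.51 ± 0.18 for AZF3 (adjusted p = 0.0884 and 0.0909), and each passed when certain single Col-0 libraries were left out, ZAT7 at -0.85 (adjusted p = 0.0412) and AZF3 at -0.59 (adjusted p = 0.0326). None of the 9 differed in association between dcp5-1 and Col-0 at T15 or at T0 either, with 12.8% and 10.9% of all genes called and 1 and 3 members at an unadjusted p under 0.05.

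**Figure D5:**
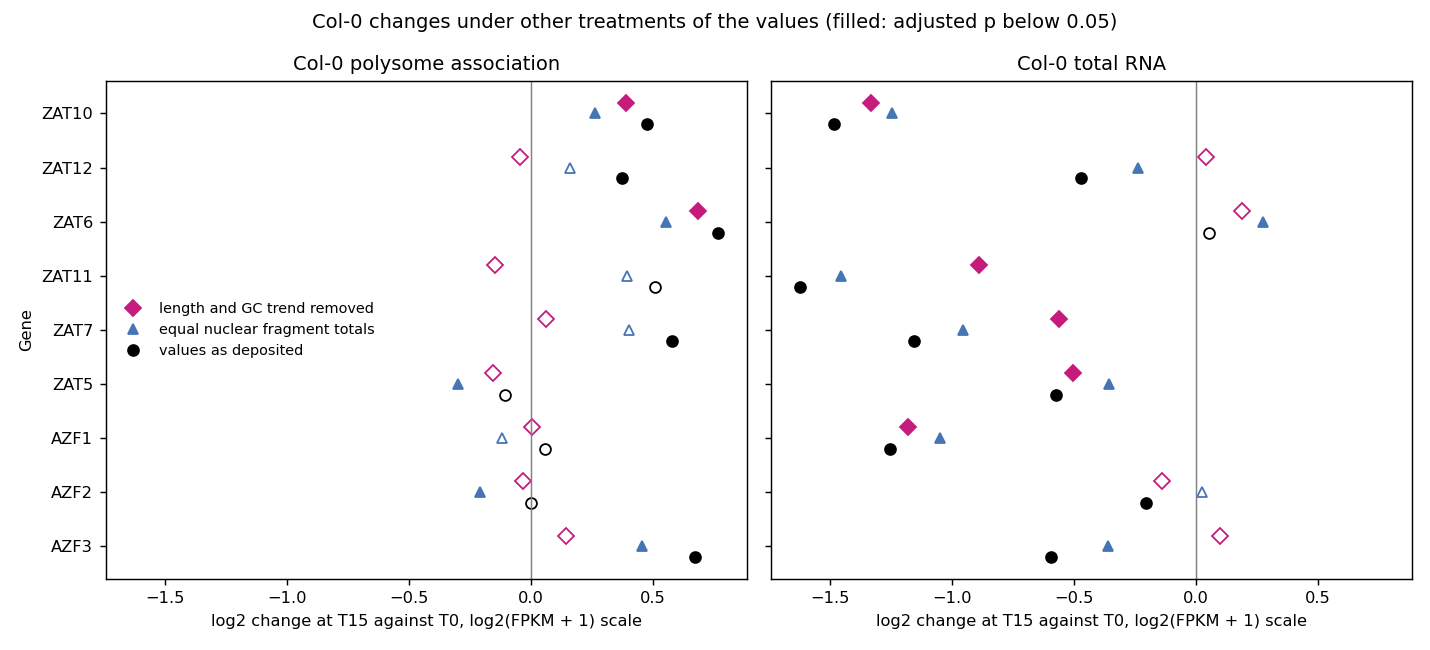
Change at T15 against T0 in Col-0 (horizontal axis, log2(FPKM + 1) scale) of the 9 genes in polysome association (left) and total RNA (right), for values after length and GC correction, that is, with each library's trend removed (diamonds), with equal nuclear fragment totals (triangles) and as deposited (circles); filled symbols have an adjusted p below 0.05. ZAT10 and ZAT6 stay past the test in association under all 3, while ZAT12 in total RNA lies at 0.04, -0.24 and -0.47 in that order.

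Related genes of the pathway were counted from lists chosen with earlier results of these data known. Only deposited values were used for the listed genes, in this paragraph and the next. Length and GC correction and equal nuclear fragment totals, which changed calls among the members, were not applied to them. Of 9 further zinc finger genes of the same subgroup, 6 passed the filter. In total RNA 2 of the 6 fell with NaCl in dcp5-1, ZAT8 (-1.0 ± 0.22) and ZAT9 (-0.32 ± 0.13), and 3 fell in Col-0, among them ZAT8 (-1.32 ± 0.22) and ZAT14 (-0.59 ± 0.11). None rose in either genotype, and the medians were -0.29 in dcp5-1 and -0.53 in Col-0. Of all genes, 26.8% fell and 29.0% rose in dcp5-1 total RNA and 32.4% fell and 33.2% rose in Col-0, with medians of 0.01 and 0.01, and the total RNA counts below stand against the same shares. Of the corepressors that EAR motifs recruit, in total RNA 7 of 8 rose and SAP18 fell in both dcp5-1 and Col-0, with medians of 0.44 and 0.62. TPL, the TOPLESS corepressor, rose by 0.76 ± 0.05 in dcp5-1 and 0.79 ± 0.05 in Col-0, and SAP18 fell by 0.51 and 0.71. In polysomal RNA 5 of 8 rose in dcp5-1 and 4 in Col-0, and SAP18 fell in both, with medians of 0.31 and 0.11, where 17.2% and 15.6% of all genes rose. In polysome association 4 of 8 fell and SAP18 rose in dcp5-1, and 6 of 8 fell and SAP18 rose in Col-0, with TPL at -0.49 ± 0.07 and SAP18 at 0.53 ± 0.06 in Col-0. Of all genes 14.0% fell and 12.3% rose in this measure in dcp5-1, and 21.5% fell and 22.8% rose in Col-0.

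Among 11 kinases and factors known to act on members of the family, 6 rose and 1 fell with NaCl in dcp5-1 total RNA, and 6 rose and 2 fell in Col-0, with medians of 0.26 and 0.14. WRKY33, a W box binding factor, rose by 1.15 ± 0.06 in dcp5-1 and had 0.07 ± 0.06 in Col-0, which did not pass. The total RNA response of 3 of the 11 was higher in dcp5-1, and that of 2, CAMTA1 and HSFA4A, was lower. The median difference of the 11 was -0.02, and of all 20964 genes 3535 were higher and 1748 lower. Among the higher were WRKY33, by 1.08 ± 0.09, and MPK3, a stress-activated MAP kinase, by 0.46 ± 0.07. At T0 7 of the 11 were lower in dcp5-1 total RNA, among them WRKY33 (-1.41 ± 0.06) and MPK3 (-0.78 ± 0.05), and MPK4 was higher (0.20 ± 0.05), where 28.6% of all genes were lower and 19.5% higher. Of 12 genes reported downstream of or partnered with the family, 6 rose and 1 fell in dcp5-1 total RNA and 5 rose and 6 fell in Col-0, with medians of 0.25 and -0.13. RD29A, an osmotic stress marker, rose by 1.79 ± 0.08 in dcp5-1 and 2.24 ± 0.08 in Col-0. APX1, the cytosolic peroxidase gene that ZAT12 supports, fell by 0.55 in Col-0, and its dcp5-1 change of -0.15 did not pass. CBF2, a cold response activator, was lower in dcp5-1 at T0 (-1.63 ± 0.09) and differed in its NaCl response by 1.30 ± 0.12.

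As a description of shared pattern, Pearson's r of log2(FPKM + 1) was taken over the 8 group means, which share libraries of the same lysates. Only deposited values were used. Length and GC correction, which turned the NaCl changes of ZAT12 and AZF3 in Col-0 total RNA, was not applied. Within the family r ran from -0.338 for ZAT6 and ZAT7 to 0.929 for ZAT12 and AZF3, and ZAT10 and ZAT11 had 0.906. ZAT6 stood apart from ZAT10 (-0.0658), its closest relative by sequence at 71.0% of 930 aligned bases. Among 4858 named genes with a mean of at least 10 FPKM, the patterns most like ZAT10 were those of OFP16 (0.987), NUDT4 (0.984) and DREB26 (0.983). Those most like ZAT7 were BAP1 (0.979), SK18 (0.971) and ERF11 (0.970), and those most like AZF2 were GAE1 (0.955), AKINBETA1 (0.952) and WRKY40 (0.945). ZAT12 was closest to PRPL35 (0.993) and AZF3 to HTA2 (0.991). ZAT6 was closest to HMGB2 (0.982), ZAT11 to SAUR20 (0.979), ZAT5 to SWEET16 (0.981) and AZF1 to MYBR1 (0.973). The genes named were picked as the highest of 4858 values of r over only 8 means. How high the highest r of any other gene would be was not tested.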

How the data were processed

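The authors deposited 1 table of FPKM values for 38088 genes in 24 columns, and 1 further line, which held no values, was dropped. Bowtie and TAIR10 are named in the submitters' processing notes without versions, while the sources used here give no counting tool, strand setting or scaling. That the deposited values are FPKM was read from the values: with 251 to 277 bases taken off each TAIR10.1 transcript, 99.0% to 99.6% of each library's low values came within 0.1 of whole fragments. Columns marked IP were read as polysomal RNA, which the table does not define, and the column numbers, 0 to 2, are not tied by any label to replicates. For dcp5-1 the ecotype labels run from Col-1 to Col-12, so genotype was taken from the genotype label.

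Values were taken as log2(FPKM + 1), computed here from the deposited FPKM, for genes reaching 1 FPKM in 3 or more libraries (55.0% of the table), and fitted with limma 3.58.1 (trend and robust empirical Bayes, R 4.3.3) with 8 groups, 24 libraries and 16 residual degrees of freedom. P-values are two-sided, Benjamini-Hochberg adjusted over 20964 genes, and called below 0.05; low genes change by more than folds on this scale show. Polysome association is the polysomal minus the total log2 level. RefSeq's TAIR10.1 supplied symbols, positions and sequences and matched 99.2% of the IDs (pysam 0.24.0, blastn 2.17.0). The 9 members and the gene lists were chosen with earlier results of these data known. All 9 are described, up to 2 rising and 2 falling genes of smallest p are named per list, and for likeness the 3 most similar genes per member were found. Alternatives were a pseudocount of 0.1, no filter, median-of-ratios scaling, equal nuclear fragment totals, length and GC correction, a fit of only the groups compared, a replicate block and each library left out. Python 3.11.15, numpy 2.4.6 and pandas 2.3.3 were used.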

Additional observations from a re-analysis of the deposited data

Results flagged for a closer look

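For 5 genes the NaCl change in Col-0 differed between polysomal and total RNA, by a test of the difference itself in limma. The polysomal change minus the total change was 0.478 for ZAT10, 0.3721 for ZAT12, 0.7678 for ZAT6, 0.5781 for ZAT7 and 0.6715 for AZF3, on the log2(FPKM + 1) scale. After length and GC correction ZAT12 turned direction, at -0.04, and ZAT7 (0.06) and AZF3 (0.14) did not pass either. In total RNA 4 genes responded to NaCl differently in dcp5-1 and Col-0, again by a test of the difference. The dcp5-1 change minus the Col-0 change was 0.8099 for ZAT10, 0.6498 for ZAT12, 1.015 for ZAT11 and 0.4496 for AZF3. In polysomal RNA the same difference was 0.5545 for ZAT10 and 0.3227 for ZAT12. AZF3 in total RNA did not pass after length and GC correction (0.04) or under equal nuclear fragment totals (0.23), and ZAT12 in polysomal RNA did not pass under equal nuclear fragment totals (0.22).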

How the results depend on the processing

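Of 171 values (9 genes in 19 comparisons), a pseudocount of 0.1 kept the direction and call of 168. Dropping the filter (28268 genes) also kept 168. Median-of-ratios scaling kept 171, but its factors lay between 0.996 and 1.02 in every library. The deposited values were nearly on that scale already, so this alternative could hardly move a call. Length and GC correction (transcripts of at least 300 bases) kept 147, equal nuclear fragment totals 154, and a fit of only the groups compared 162 of 168. Over the fits that left out a library each, 4044 of 4104 values kept both and 0 reversed. Many of these values come from fits in which the library left out was of a group outside the comparison. There the log2 change could not move or reverse, and only the call could. After length and GC correction, the NaCl count in Col-0 was 5 in total RNA, against 8, and 2 in polysome association, against 5. These values also reversed: ZAT12 0.0410 and AZF3 0.10 for NaCl in Col-0 total RNA, ZAT12 -0.0448 for NaCl in Col-0 association and -0.19 for the genotypes in T15 total RNA, and, for polysomal against total RNA, ZAT11 0.21 in dcp5-1 T0 and ZAT7 0.42 in dcp5-1 T0, 0.0552 in dcp5-1 T15 and 0.135 in Col-0 T0. With equal nuclear fragment totals AZF2 was 0.0252 for NaCl in Col-0 total RNA and -0.21 in Col-0 association, and ZAT10 -0.20 for polysomal against total RNA in Col-0 T15; the median of all genes for NaCl in Col-0 total RNA was 0.21, against 0.01. Why these values moved was not tested. The dcp5-1 association count was 1 with a pseudocount of 0.1 and 1 in the fit of only the groups compared, against 0, and the polysomal count of differing NaCl responses was 1 without the filter, with equal nuclear totals and in the fit of only the groups compared, against 2. Leaving out a library gave 6 to 7 genes for NaCl in dcp5-1 polysomal RNA, 6 to 7 in dcp5-1 total RNA and 0 to 2 in dcp5-1 association, and 6 to 7, 8 to 8 and 5 to 6 in Col-0. For the genotypes, in the same order of fractions, it gave 4 to 5, 3 to 6 and 0 to 0 at T15 and 9 to 9, 7 to 7 and 0 to 0 at T0. For the difference in response it gave 1 to 2, 4 to 5 and 0 to 1, and for polysomal against total RNA 5 to 6 in dcp5-1 T15, 6 to 7 in dcp5-1 T0, 2 to 5 in Col-0 T15 and 6 to 6 in Col-0 T0. Columns of the same number did not deviate together. Here 12 pairs of polysomal and total columns of the same group and number had correlations of -0.103 to 0.0368. Of 84 same-numbered pairs 8 were over 0.1. No label ties the numbers to lysates, so these values cannot show whether the fractions of a lysate vary together. The main fit treated the fractions as unpaired, and the block below does not test that pairing. With the column number as a replicate block the polysomal count of differing responses was 1, with ZAT12 at 0.32 (adjusted p = 0.0604), and ZAT12 in dcp5-1 total RNA was 0.18 (adjusted p = 0.05); the block changed none of the other 169 calls. The planned rescaling without organelle-encoded genes was not run, since deposited totals are dominated by chloroplast genes shorter than a fragment; equal nuclear fragment totals were chosen in its place after seeing the data. ZAT11, at 1 to 73 fragments per library, is the member that depth limits most.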
